A study of Mus musculus with 9 samples.

Results

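The nuclear receptor genes outside the ROR and REV-ERB groups were examined as a set of 40 listed genes in mouse Th17 cultures. Of these, 38 had a probe set annotated with that gene symbol alone, among 22180 genes so named on the array, and the probe set with the highest mean over the 9 arrays was used for each gene. Nr1h2 and Nr2e3 were not analysed here. The study compared SRG3 cKO, RORγt KO and WT T cells after Th17 polarization, with 3 arrays for each genotype. SRG3 cKO cells carry a conditional knockout of SRG3, a scaffold protein of the Swi/Snf (BAF) chromatin remodellers that Smarcc1 encodes, and the labels name no Cre driver. RORγt KO cells lack RORγt, the transcription factor that directs the Th17 programme, and WT cells carry neither deletion. All cultures began with naive CD4 T cells sorted from spleen as CD25 negative, CD44 low and CD62L high. They were held for 60 h on plate-bound anti-CD3 (10 µg/ml) and anti-CD28 (10 µg/ml) with TGF-β1 (1 ng/ml), IL-6 (30 µg/ml as written in the labels), anti-IL-4 (2 µg/ml) and anti-IFN-γ (2 µg/ml). The labels give neither strain nor age. Arrays of a genotype are labelled biological replicates without a statement that they came from separate mice, so that p-values here reflect array-to-array spread alone.

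Nuclear receptors are transcription factors with a zinc finger DNA-binding domain, and many carry a pocket for a small lipophilic ligand such as a steroid, retinoid, vitamin D metabolite, oxysterol or fatty acid. Receptors for retinoic acid, thyroid hormone, vitamin D, oxysterols and fatty acids bind DNA with an RXR partner, exchange corepressors for coactivators when ligand binds, and have been studied as modulators of Th17 differentiation in mice. The NR4A receptors differ in that they are switched on at the level of transcription within hours of T cell receptor signalling and have no established ligand requirement, and they are known for roles in T cell tolerance and exhaustion.

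Values are deposited log2 intensities, and a difference is a log2 intensity in the first named genotype minus that in the other. The array medians were 7.12 to 7.14. Smarcc1 read 8.47, 8.79 and 8.62 in the SRG3 cKO arrays, 10.12, 10.04 and 10.19 in the RORγt KO arrays and 10.12, 10.32 and 10.39 in the WT arrays, and its difference between SRG3 cKO and WT was -1.65 (limma adjusted p = 0.000207). The Th17 cytokine gene Il17a fell in SRG3 cKO (-2.19, limma adjusted p = 0.00478) and in RORγt KO (-3.85, adjusted p = 0.000143). Il23r, the receptor chain for IL-23, fell in RORγt KO (-2.63, limma adjusted p = 0.000143) and in SRG3 cKO (-0.88, adjusted p = 0.0451, or 0.0552 with the replicate number as a block). The SRG3 cKO call for Il23r held in 2 of the 9 fits that left out an array, those without RORγt KO array 2 or 3 (adjusted p up to 0.179 in the others). The Th17 markers did not all fall. Of 12 measured, limma called 3 lower and 0 higher in SRG3 cKO (list median -0.05), where 0.523% of all genes were called. In RORγt KO 5 were lower and 2 higher (list median -0.22), against 1.04% of all genes called, and Ahr was among those that rose (0.66, limma adjusted p = 0.00603). Il1r1 and Ccr6 fell in RORγt KO (-1.40 and -0.63) but differed by -0.03 and 0.02 in SRG3 cKO. All 10 measured T cell and CD4 identity markers and all 12 Th17 markers lay above the level of olfactory receptor probe sets defined below. Above that level were also 4 of 10 B cell or MHC class II markers, 2 of 17 of myeloid cells, 3 of 10 of CD8, NK and γδ T cells, 0 of 5 of erythroid cells and platelets and 1 of 10 of stroma and endothelium. Of these other lineages, 1 myeloid marker, Ly6g (0.58, limma adjusted p = 0.0425), and 1 NK marker, Klrd1 (0.91, adjusted p = 0.0202), rose in RORγt KO, and both lay under the olfactory level. The Ly6g call held in 2 of the 9 fits that left out an array, those without RORγt KO array 3 or WT array 3 (adjusted p up to 0.174 in the others), and the Klrd1 call ended without RORγt KO array 1 or 2 or WT array 2 or 3 (0.0589 to 0.107). Limma called 0 of the 10 T cell and CD4 identity markers in either comparison with WT, with list medians of 0.15 in SRG3 cKO and 0.09 in RORγt KO. Their mean was 10.641 to 10.759 in the SRG3 cKO arrays, 10.565 to 10.652 in the RORγt KO arrays and 10.498 to 10.616 in the WT arrays. An unadjusted p under 0.05 was found for 4 of them in SRG3 cKO and for 2 in RORγt KO. The part of these markers in other differences was not tested. The RNA came from whole cultures, so fewer cells of a type and less RNA per cell cannot be told apart. Along the first principal component, which held 28.8% of the variance, SRG3 cKO array 1, RORγt KO array 3 and WT array 1 stood apart from the other arrays of their genotypes, and each array was therefore left out in turn.

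To judge which receptors gave a signal, each probe set was set against 1108 probe sets of olfactory receptors, genes not known to be used by T cells. In all, 11 of the 38 receptor genes (28.9%) had a mean above the 95th percentile of the olfactory set, 7.73 on the log2 scale, against 38.6% of all genes. They were the 3 NR4A genes Nr4a1, Nr4a2 and Nr4a3, the retinoic acid receptor Rara, its partner Rxrb, the fatty acid sensor Ppard, the glucocorticoid receptor Nr3c1, the estrogen-related receptor Esrra, which is known for control of mitochondrial genes, and the orphan receptors Nr2c1, Nr2c2 and Nr2f6. The lowest of the 11 by this measure was Nr2f6, with 97.4% of olfactory probe sets below it. Just under the percentile stood Vdr, Rxra and Nr3c2, the mineralocorticoid receptor, with 94.1%, 93.6% and 93.1% of olfactory probe sets below them. For the remaining 24 genes the share was between 61.0% for Esrrb and 90.2% for Thra, and no statement is made on whether they were expressed. Every member of the LXR and FXR, HNF4, and NR5 and NR6 groups that was measured was among the 27 genes at or under the percentile.

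**Figure D1:**
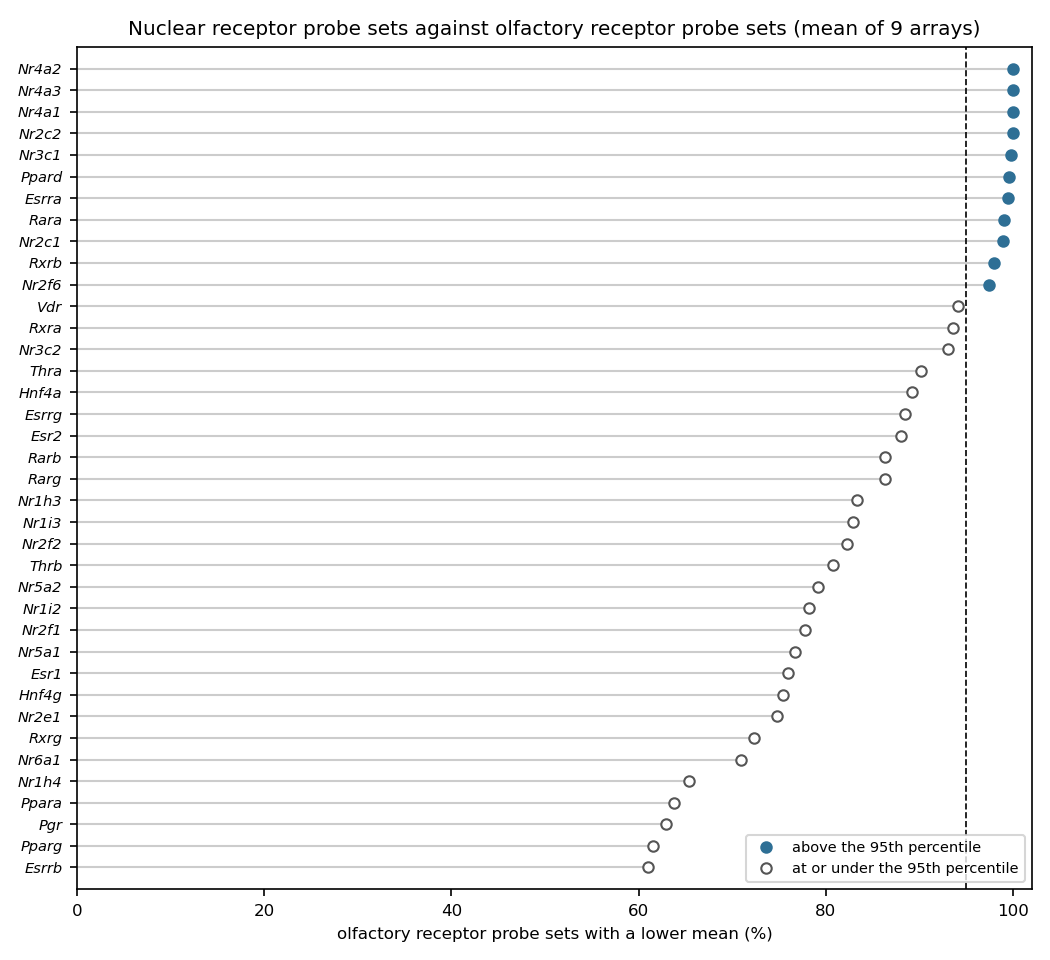
Share of 1108 olfactory receptor probe sets (x axis, %) whose mean over the 9 arrays is lower than that of each of 38 nuclear receptor genes (y axis), with a dashed line at 95%. Filled points are the 11 genes above the line, led by the NR4A genes and Nr2c2 at 100%, and open points are the 27 at or under it, with Vdr, Rxra and Nr3c2 closest to the line.

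Across the set, receptor gene intensities differed little between genotypes. In SRG3 cKO against WT, 1 of the 38 receptor genes passed the limma test at an adjusted p of 0.05, namely Vdr, which fell, while 0.523% of all genes tested were called (0.243% as lower). An unadjusted p under 0.05 was found for 3 receptor genes (Vdr, Pparg and Nr4a3), or 7.89% against 11.2% of all genes. The median difference over the 38 genes was -0.02, against -0.01 over all genes, and the median absolute difference was 0.05 for both. In RORγt KO against WT, limma called 0 of the 38 receptor genes while it called 1.04% of all genes, and 4 receptor genes (Vdr, Rxra, Esrrb and Nr4a3) had an unadjusted p under 0.05, or 10.5% against 12.7% of all genes. The median absolute difference there was 0.04 over the receptor genes and 0.05 over all genes.

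The precision of the arrays bounds these differences in intensity. As 27 of the 38 genes lay at or under the olfactory percentile, a narrow interval for them does not bound a change in transcript. The 95% interval of the difference between SRG3 cKO and WT lay within 0.5 log2 units of 0, which is 1.41-fold either way, for 36 of the 38 genes, the exceptions being Vdr and Nr4a3. The interval between RORγt KO and WT was within that bound for 36 genes as well, all but Nr4a2 and Nr4a3. Within a bound of 0.25 log2 units (1.19-fold) lay the intervals of 30 genes in SRG3 cKO and of 32 genes in RORγt KO. Groups without overlap between their arrays were found for 4 receptor genes in SRG3 cKO against WT (Vdr and Pparg lower, Esrrb and Nr4a3 higher), or 10.5% against 13.6% of all genes (6.56% lower and 7.04% higher). There were 3 such genes for RORγt KO and WT (Esrrb, Nr4a2 and Nr4a3, all higher), or 7.89% against 14.3% of all genes (6.9% higher).

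**Figure D2:**
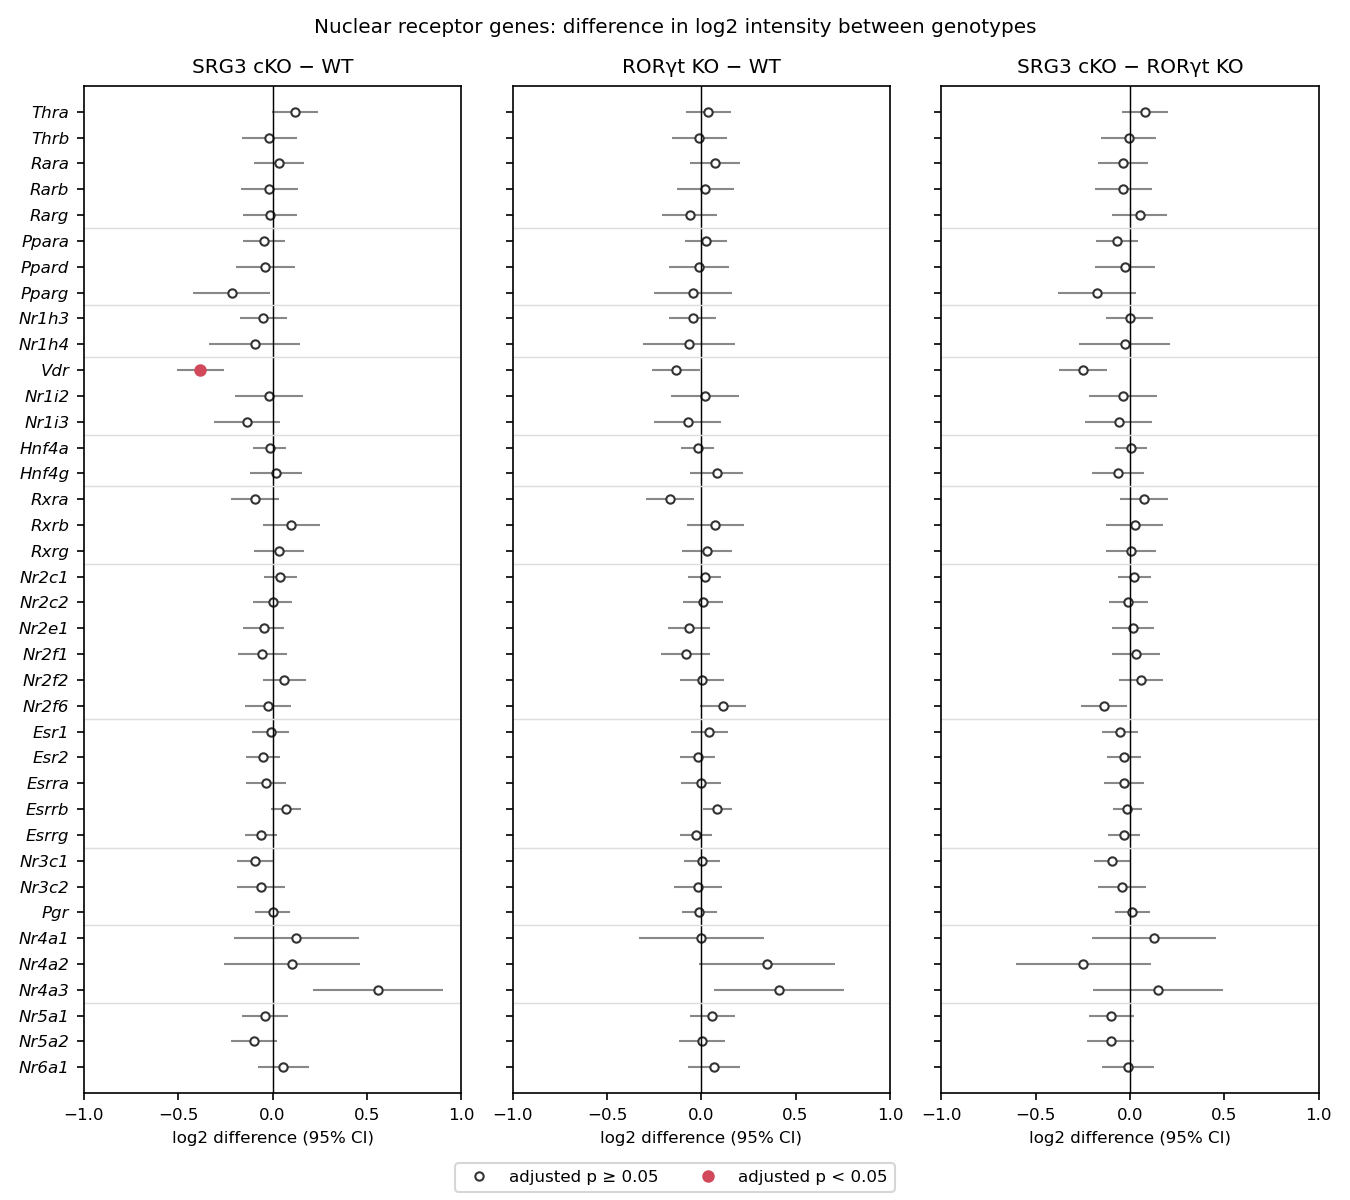
Difference in log2 intensity (x axis, with its 95% interval from limma) for each of 38 nuclear receptor genes (y axis, grouped by family between grey lines) in SRG3 cKO minus WT, RORγt KO minus WT and SRG3 cKO minus RORγt KO. The filled point, Vdr in SRG3 cKO minus WT at -0.38, is the only one with an adjusted p under 0.05, and the widest intervals belong to Nr4a1, Nr4a2 and Nr4a3.

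Vdr encodes the receptor for calcitriol, the active form of vitamin D, which in mouse T cells is known to restrain IL-17 production. It read 7.46, 7.37 and 7.50 in the SRG3 cKO arrays, 7.68, 7.80 and 7.60 in the RORγt KO arrays and 7.83, 7.85 and 7.79 in the WT arrays. All 3 SRG3 cKO arrays lay below all arrays of the other genotypes, and the RORγt KO and WT arrays overlapped at 7.80 and 7.79. The means were 7.44 ± 0.07 in SRG3 cKO, 7.69 ± 0.10 in RORγt KO and 7.83 ± 0.03 in WT (SD, n = 3 each). Vdr fell 1.30-fold in SRG3 cKO against WT, by -0.38 ± 0.06 on the log2 scale (SE, 95% interval -0.51 to -0.26, limma adjusted p = 0.0264). Between RORγt KO and WT the difference was -0.13 (interval -0.26 to -0.01, limma adjusted p = 0.366) and did not pass. The mean of Vdr over the 9 arrays, 7.65, was under the olfactory percentile of 7.73, so the SRG3 cKO and RORγt KO means were below that level and the WT mean above it. The call was lost in 10 of the 19 alternatives in which Vdr was tested, while the difference stayed between -0.41 and -0.34. It was lost when any SRG3 cKO or WT array or RORγt KO array 1 was left out (limma adjusted p 0.0577 to 0.110). It was also lost when the RORγt KO arrays were left out of the fit (0.0632, or 0.0901 with the replicate number as a block as well) and over all probe sets (0.0842). The mean over the 17 myeloid markers, cells that also carry Vdr, was 6.79 to 6.83 in the SRG3 cKO arrays, 6.87 to 6.91 in the RORγt KO arrays and 6.80 to 6.84 in the WT arrays, and its part in the Vdr difference was not tested.

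The promoter of Vdr is shown as the start region of the receptor gene that fell. The window is the 250 bases before the RefSeq start, on the minus strand at chr15:97908297-97908546 (GRCm38.p6), 5′ to 3′, with each GGGCGG or its reverse complement CCGCCC, the GC box bound by Sp1 family factors, in capitals.
Vdr: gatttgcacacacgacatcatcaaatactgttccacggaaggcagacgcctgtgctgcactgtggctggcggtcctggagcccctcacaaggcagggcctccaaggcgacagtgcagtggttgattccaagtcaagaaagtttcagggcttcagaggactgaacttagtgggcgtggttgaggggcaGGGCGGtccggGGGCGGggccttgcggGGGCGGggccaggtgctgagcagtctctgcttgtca
It held 3 GC boxes, and 33.0% of the 32536 promoter windows of that length in the RefSeq table held at least 1. Neither AGGTCA, the hexamer to which many nuclear receptors bind, nor TATAAA was found in it on either strand, and AGGTCA occurred in 14.04% of all windows.

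Genes that make, break down or carry the ligands of the vitamin D, retinoid and thyroid hormone receptors were followed beside Vdr. Of 20 measured genes of this list, 1 fell and 0 rose in SRG3 cKO against WT, with a list median of -0.02, and limma called 0 in RORγt KO. An unadjusted p under 0.05 was found for 5 of them in SRG3 cKO and for 3 in RORγt KO. For this list and those below, the shares over all genes were 0.523% called and 11.2% at an unadjusted p under 0.05 in SRG3 cKO against WT. In RORγt KO against WT they were 1.04% and 12.7%. No list was tested as a set. The gene that fell was Crabp2, which encodes the cytosolic protein that hands retinoic acid to its nuclear receptors. Crabp2 read 8.74, 9.06 and 9.06 in the SRG3 cKO arrays, 9.69, 9.95 and 9.67 in the RORγt KO arrays and 9.57, 9.74 and 9.73 in the WT arrays, so that all SRG3 cKO arrays lay below the 6 others. Its difference was -0.73 ± 0.10 against WT (SE, limma adjusted p = 0.0216) and -0.82 ± 0.10 against RORγt KO (adjusted p = 0.00505). Between RORγt KO and WT it was 0.09 (interval -0.14 to 0.32, adjusted p = 0.773). The difference from RORγt KO passed under all 20 alternative settings, and that from WT under 13 of 20, with values from -0.78 to -0.62. The WT comparison lost its call without any 1 of the SRG3 cKO arrays or WT arrays 2 or 3 (adjusted p 0.0513 to 0.104). The vitamin D hydroxylase genes Cyp27b1, which makes calcitriol, and Cyp24a1, which breaks it down and is a classical target of the receptor, were chosen after their values were seen. Cyp24a1 differed by -0.06 in SRG3 cKO and by -0.05 in RORγt KO, and Cyp27b1 by 0.00 and 0.06 in the same order, none of which passed. Stra6, the membrane receptor for retinol binding protein, also chosen after its values were seen, differed by -0.50 in SRG3 cKO (limma adjusted p = 0.177).

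Among 16 measured target genes of retinoic acid and vitamin D, limma called 0 in either comparison with WT (3 in each with an unadjusted p under 0.05), and the list medians were -0.02 in SRG3 cKO and 0.01 in RORγt KO. The smallest p-values belonged to Itgb7, the β7 integrin chain of gut-homing T cells, and to Tgm2, a transglutaminase induced by retinoic acid. Itgb7 differed by 0.31 in SRG3 cKO (limma adjusted p = 0.152) and by 0.34 in RORγt KO (adjusted p = 0.0929). Tgm2 differed by 0.50 in SRG3 cKO (limma adjusted p = 0.414) and by 0.84 in RORγt KO (adjusted p = 0.122).

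The retinoic acid and thyroid hormone receptors themselves did not pass in any comparison. Rara, the retinoic acid receptor best known in T cells, was the only 1 of these 5 genes above the olfactory level. It read 8.52, 8.36 and 8.57 in the SRG3 cKO arrays, 8.56, 8.49 and 8.51 in the RORγt KO arrays and 8.48, 8.37 and 8.49 in the WT arrays. The 3 ranges overlapped, with differences of 0.04 in SRG3 cKO (interval -0.10 to 0.17) and 0.07 in RORγt KO (interval -0.06 to 0.20). Rarb, Rarg, Thrb and Thra differed from WT by between -0.02 and 0.12 in SRG3 cKO, where the highest value was that of Thra, the thyroid hormone receptor α gene (limma adjusted p = 0.459). In RORγt KO the same 4 genes lay between -0.06 for Rarg and 0.04 for Thra.

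RXR proteins are the shared partners of these receptors. Rxrb, above the olfactory level, read 8.35, 8.21 and 8.25 in the SRG3 cKO arrays, 8.25, 8.28 and 8.21 in the RORγt KO arrays and 8.18, 8.30 and 8.03 in the WT arrays, with overlap throughout. Rxra read 7.62, 7.59 and 7.62 in the SRG3 cKO arrays, 7.55, 7.44 and 7.62 in the RORγt KO arrays and 7.62, 7.79 and 7.70 in the WT arrays. RORγt KO array 3 and WT array 1 had the same Rxra value, and the difference between RORγt KO and WT was -0.17 (interval -0.29 to -0.04, limma adjusted p = 0.267). Rxrg differed by 0.03 in each knockout against WT.

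The PPARs sense fatty acids and their derivatives, and PPARγ is known as a brake on Th17 differentiation in mice. Ppard, above the olfactory level, differed by -0.04 in SRG3 cKO (interval -0.20 to 0.12) and by -0.01 in RORγt KO (interval -0.17 to 0.15). Pparg read 5.93, 5.89 and 5.83 in the SRG3 cKO arrays, 6.27, 5.90 and 6.002 in the RORγt KO arrays and 6.10, 5.99 and 6.23 in the WT arrays. The SRG3 cKO arrays were below the WT arrays, with a difference of -0.22 (interval -0.42 to -0.01, limma adjusted p = 0.426), at a level where 61.6% of olfactory probe sets were lower. Ppara differed by -0.04 in SRG3 cKO and by 0.03 in RORγt KO. Of 21 measured target genes of PPARs and the estrogen-related receptors, limma called 0 in either comparison with WT, and 3 in SRG3 cKO and 5 in RORγt KO had an unadjusted p under 0.05. The list medians were -0.03 in SRG3 cKO and -0.04 in RORγt KO. Plin2, which coats lipid droplets, differed by -0.24 in SRG3 cKO and by -0.20 in RORγt KO (limma adjusted p = 0.146 and 0.177). Acadm, a dehydrogenase of fatty acid oxidation, differed by -0.06 in SRG3 cKO and by 0.18 in RORγt KO, and it was lower in SRG3 cKO than in RORγt KO by -0.25 (limma adjusted p = 0.0272). That Acadm call held in 11 of 20 alternatives and ended without any 1 of the RORγt KO arrays, SRG3 cKO arrays 2 or 3 or WT array 2 (adjusted p 0.0533 to 0.118).

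Of the sterol and bile acid receptors, Nr1h3 (LXRα) differed by -0.05 in both knockouts and Nr1h4 (FXR) by -0.10 in SRG3 cKO and -0.07 in RORγt KO, both under the olfactory level. Limma called 0 of 13 measured LXR target genes, a list that includes Nr1h3, in either comparison with WT, with 3 at an unadjusted p under 0.05 in each and list medians of 0.01 in SRG3 cKO and 0.02 in RORγt KO. Fasn, the fatty acid synthase, differed by -0.26 in SRG3 cKO (limma adjusted p = 0.157) and by -0.29 in RORγt KO (adjusted p = 0.083), and Lpcat3, which remodels phospholipids, by -0.14 and -0.17 in the same order. Limma also called 0 of 11 genes of sterol and steroid ligand handling, with 2 in SRG3 cKO and 1 in RORγt KO at an unadjusted p under 0.05 and list medians of -0.03 in both. In that list Cyp11a1, which opens steroid synthesis, differed by 0.25 in SRG3 cKO and by 0.42 in RORγt KO (limma adjusted p = 0.357 and 0.0779), and Ch25h, which makes 25-hydroxycholesterol, by -0.16 and -0.05. The xenobiotic receptors Nr1i2 and Nr1i3 differed by -0.02 and -0.13 in SRG3 cKO and by 0.02 and -0.07 in RORγt KO. Hnf4a and Hnf4g, receptors of liver and gut epithelium, lay between -0.02 and 0.08 in both comparisons with WT.

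Nr3c1, the glucocorticoid receptor and a receptor long studied with Swi/Snf remodelling, read 8.78, 8.90 and 8.79 in the SRG3 cKO arrays, 8.90, 8.95 and 8.92 in the RORγt KO arrays and 8.90, 8.90 and 8.96 in the WT arrays. SRG3 cKO array 2 lay within the WT range, and the other SRG3 cKO arrays lay below it. The difference was -0.09 in SRG3 cKO (interval -0.19 to 0.00, limma adjusted p = 0.461) and 0.00 in RORγt KO (interval -0.09 to 0.10). Nr3c2 differed by -0.06 in SRG3 cKO and by -0.02 in RORγt KO, and Pgr, the progesterone receptor, by 0.00 and -0.01.

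Among 21 measured target genes of the glucocorticoid receptor, limma called 0 in SRG3 cKO, while 2 rose in RORγt KO, and the list medians were 0.08 in SRG3 cKO and 0.10 in RORγt KO, against -0.01 and 0.00 over all genes. An unadjusted p under 0.05 was found for 4 of them in SRG3 cKO and for 10 in RORγt KO, against 11.2% and 12.7% of all genes. Limma called 0.523% and 1.04% of all genes in the same order, and the list was not tested as a set. Il7r, the IL-7 receptor α chain, read 9.28, 9.26 and 9.24 in the SRG3 cKO arrays, 10.36, 10.42 and 10.16 in the RORγt KO arrays and 9.54, 9.20 and 9.34 in the WT arrays. It rose by 0.95 in RORγt KO (limma adjusted p = 0.00135), whose arrays were all above the 6 others. Bcl2l11, which encodes the death-promoting protein BIM, read 8.30, 8.06 and 8.30 in the SRG3 cKO arrays, 8.71, 8.94 and 8.93 in the RORγt KO arrays and 8.08, 8.06 and 8.33 in the WT arrays. It rose by 0.70 in RORγt KO (limma adjusted p = 0.014, and 0.0764 without RORγt KO array 2 or 0.0711 without WT array 2), again with no overlap with the other genotypes.

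The NR4A genes, which encode NUR77, NURR1 and NOR1, were those of the set whose values spread most over the 9 arrays. The gap between the lowest and the highest array was 1.12 log2 units for Nr4a3, 0.80 for Nr4a2 and 0.60 for Nr4a1, and the next was 0.48 for Vdr. Nr4a3 read 11.57, 11.10 and 11.37 in the SRG3 cKO arrays, 11.24, 11.21 and 11.14 in the RORγt KO arrays and 11.09, 10.45 and 10.82 in the WT arrays. Every array of either knockout lay above every WT array, although SRG3 cKO array 2 (11.10) and WT array 1 (11.09) nearly met. The difference was 0.56 ± 0.15 in SRG3 cKO (SE, interval 0.22 to 0.91, limma adjusted p = 0.208) and 0.41 ± 0.15 in RORγt KO (SE, interval 0.07 to 0.76, adjusted p = 0.310), and neither passed. With the replicate number as a block the adjusted p in SRG3 cKO was 0.0549, and with that block and no RORγt KO arrays in the fit, a setting chosen after seeing the data, it was 0.0468.

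Nr4a1, the most widely used reporter of T cell receptor signalling, read 11.57, 11.15 and 11.52 in the SRG3 cKO arrays, 11.35, 11.16 and 11.35 in the RORγt KO arrays and 11.52, 10.97 and 11.38 in the WT arrays. The groups overlapped, with differences of 0.13 in SRG3 cKO (interval -0.20 to 0.46, limma adjusted p = 0.793, and -0.03 without WT array 2) and 0.00 in RORγt KO (interval -0.33 to 0.33). Nr4a2 read 9.53, 9.15 and 9.64 in the SRG3 cKO arrays, 9.69, 9.60 and 9.77 in the RORγt KO arrays and 9.50, 8.97 and 9.54 in the WT arrays. Its difference was 0.10 in SRG3 cKO (limma adjusted p = 0.856, and -0.08 without WT array 2) and 0.35 in RORγt KO (interval -0.01 to 0.71, adjusted p = 0.407), where the arrays were all above those of WT.

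Arrays with the number 2 were the lowest of their genotype for all 3 NR4A genes in SRG3 cKO and in WT. In RORγt KO array 2 was the lowest for Nr4a1 and Nr4a2, and array 3 for Nr4a3. Within WT the gap between array 2 and the highest array was 0.55 for Nr4a1, 0.58 for Nr4a2 and 0.65 for Nr4a3, each wider than the genotype differences of that gene. Of the immediate early genes Egr1 and Fosb, chosen after their values were seen, Egr1 did not follow that order and Fosb did in part. For Egr1 array 3 was the lowest in every genotype, and for Fosb it was array 1 in SRG3 cKO and array 2 in RORγt KO and WT. The order was not confined to the NR4A genes. Rara and the T cell marker Cd4, also chosen after their values were seen, were lowest in array 2 of every genotype.

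**Figure D3:**
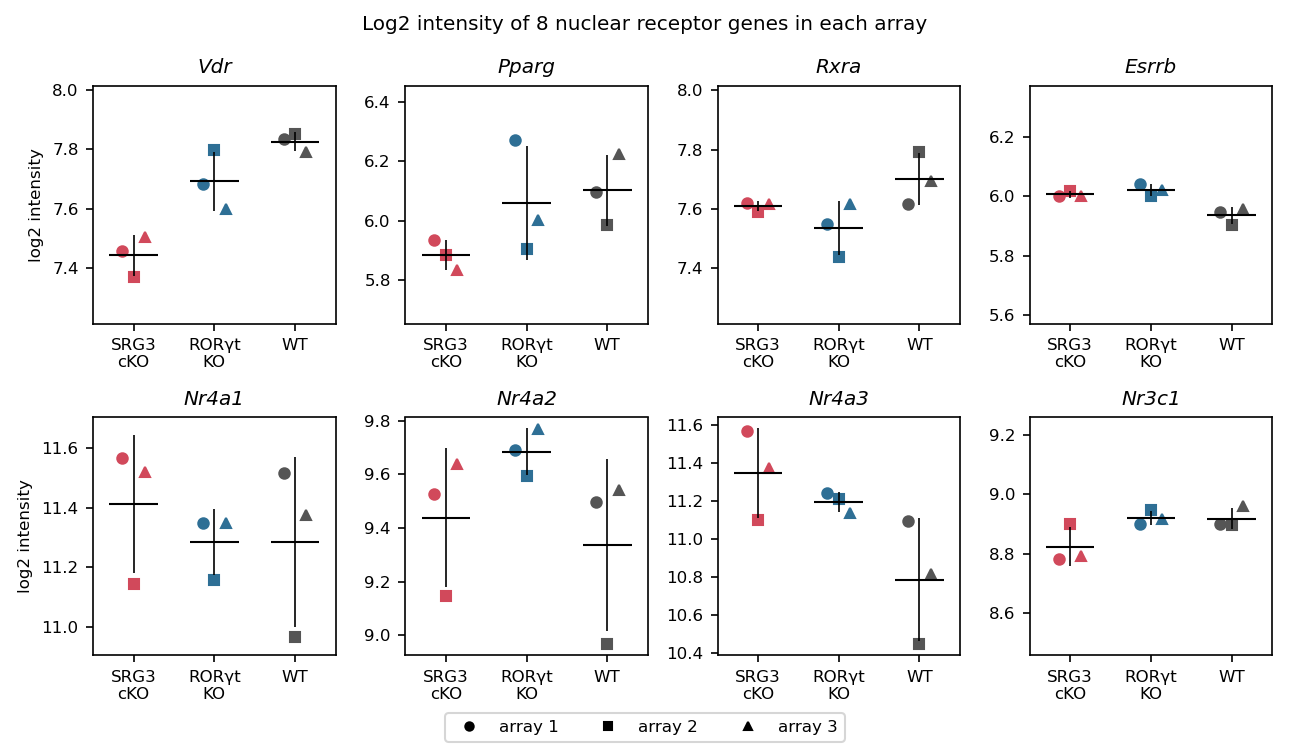
Log2 intensity (y axis, a scale of its own per panel) of 8 nuclear receptor genes in each array of SRG3 cKO, RORγt KO and WT (x axis), with a symbol for each array number, a horizontal bar at the mean and a vertical bar of 1 SD either side (n = 3). The SRG3 cKO arrays of Vdr lie below all others, at 7.37 to 7.50, and array 2 is the lowest point in 8 of the 9 groups drawn for the NR4A genes.

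The promoters of the NR4A genes are shown because these genes spread most between arrays and have start regions dense in a short element. Each window is the 250 bases before the RefSeq start in GRCm38.p6, 5′ to 3′, on the plus strand at chr15:101266596-101266845 for Nr4a1, on the minus strand at chr2:57124004-57124253 for Nr4a2 and on the plus strand at chr4:48045055-48045304 for Nr4a3. Capitals mark GC boxes as for Vdr and TGACG or its reverse complement CGTCA, the core of the cyclic AMP response element bound by CREB family factors.
Nr4a1: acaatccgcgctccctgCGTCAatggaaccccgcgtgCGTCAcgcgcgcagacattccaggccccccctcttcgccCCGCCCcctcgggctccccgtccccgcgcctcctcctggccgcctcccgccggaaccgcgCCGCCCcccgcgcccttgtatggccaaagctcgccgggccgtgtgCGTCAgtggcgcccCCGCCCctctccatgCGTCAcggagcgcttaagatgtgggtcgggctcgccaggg
Nr4a2: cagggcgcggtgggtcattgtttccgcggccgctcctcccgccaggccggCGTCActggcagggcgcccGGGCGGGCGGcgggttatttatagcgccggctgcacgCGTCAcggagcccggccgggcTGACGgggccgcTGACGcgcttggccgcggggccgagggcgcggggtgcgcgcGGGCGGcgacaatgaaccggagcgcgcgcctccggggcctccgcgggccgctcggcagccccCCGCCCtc
Nr4a3: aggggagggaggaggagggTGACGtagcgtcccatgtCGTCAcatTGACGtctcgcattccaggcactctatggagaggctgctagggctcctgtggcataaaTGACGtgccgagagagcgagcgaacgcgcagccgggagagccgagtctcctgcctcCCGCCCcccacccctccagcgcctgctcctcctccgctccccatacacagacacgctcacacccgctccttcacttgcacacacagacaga
Each of the 3 windows held 4 copies of TGACG counted over both strands, a count reached by 0.138% of the 32536 windows, and the Vdr window held 0. At least 1 copy was found in 13 of the 56 windows of the listed receptor genes (23.2%), since a gene can have several starts in the table, and in 17.9% of all windows. TGACG was chosen after the sequences were seen, and its presence is a match of letters, not a measured binding site. The GC content was 74.4% for Nr4a1, 80.0% for Nr4a2 and 63.6% for Nr4a3, against a median of 52.4% over all windows. The shares of all windows given here were not matched for GC content. The full palindrome TGACGTCA, found in 1.56% of all windows, and the AP-1 site TGANTCA, found in 6.73%, were in none of these 3 windows. GC boxes numbered 3 for Nr4a1, 4 for Nr4a2, of which a pair overlaps, and 1 for Nr4a3. TATAAA, found in 12.3% of all windows, was in that of Nr4a2.

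Of 19 measured genes linked to NR4A activity in T cell activation and exhaustion, limma called 0 in SRG3 cKO against WT, and 3 rose and 1 fell in RORγt KO, with list medians of 0.00 and -0.02 in the same order. An unadjusted p under 0.05 was found for 7 of them in SRG3 cKO and for 10 in RORγt KO, against 11.2% and 12.7% of all genes. Limma called 0.523% and 1.04% of all genes in the same order, and the list was not tested as a set. The genes that rose were Cblb, a ubiquitin ligase that dampens T cell receptor signalling, and the inhibitory receptors Tigit and Lag3. Tigit read 7.82, 7.81 and 7.65 in the SRG3 cKO arrays, 8.50, 8.79 and 8.41 in the RORγt KO arrays and 7.97, 7.85 and 7.72 in the WT arrays, and rose by 0.72 in RORγt KO (limma adjusted p = 0.014). Lag3 read 9.36, 9.40 and 9.39 in the SRG3 cKO arrays, 9.86, 9.94 and 9.67 in the RORγt KO arrays and 9.50, 9.44 and 9.31 in the WT arrays, and rose by 0.41 in RORγt KO (limma adjusted p = 0.0343). For both genes the RORγt KO arrays were above all the others. Cblb read 11.13, 10.94 and 10.97 in the SRG3 cKO arrays, 11.37, 11.54 and 11.15 in the RORγt KO arrays and 10.85, 10.60 and 10.43 in the WT arrays, and its difference was 0.39 in SRG3 cKO (limma adjusted p = 0.266) and 0.73 in RORγt KO (adjusted p = 0.0267). Egr2, a transcription factor of T cell anergy, read 9.67, 9.84 and 9.70 in the SRG3 cKO arrays, 9.49, 9.39 and 9.40 in the RORγt KO arrays and 9.72, 9.76 and 9.67 in the WT arrays, and fell by 0.29 in RORγt KO (limma adjusted p = 0.0436). The mean over the 10 measured CD8, NK and γδ T cell markers was 6.85 to 6.87 in the SRG3 cKO arrays, 6.99 to 7.08 in the RORγt KO arrays and 6.91 to 6.96 in the WT arrays, and its part in the RORγt KO differences of these lists was not tested. Leaving out arrays in turn, the RORγt KO calls held in 6 of 9 fits for Tigit (adjusted p up to 0.0703), 3 for Cblb (up to 0.129), 2 for Lag3 (up to 0.139) and 1 for Egr2 (up to 0.185), and leaving out RORγt KO array 1 or WT array 2 ended all 4. The Tigit call also ended without WT array 3, the Cblb call held without SRG3 cKO array 1, RORγt KO array 3 or WT array 1, the Lag3 call without RORγt KO array 3 or WT array 1, and the Egr2 call without SRG3 cKO array 2.

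**Figure D4:**
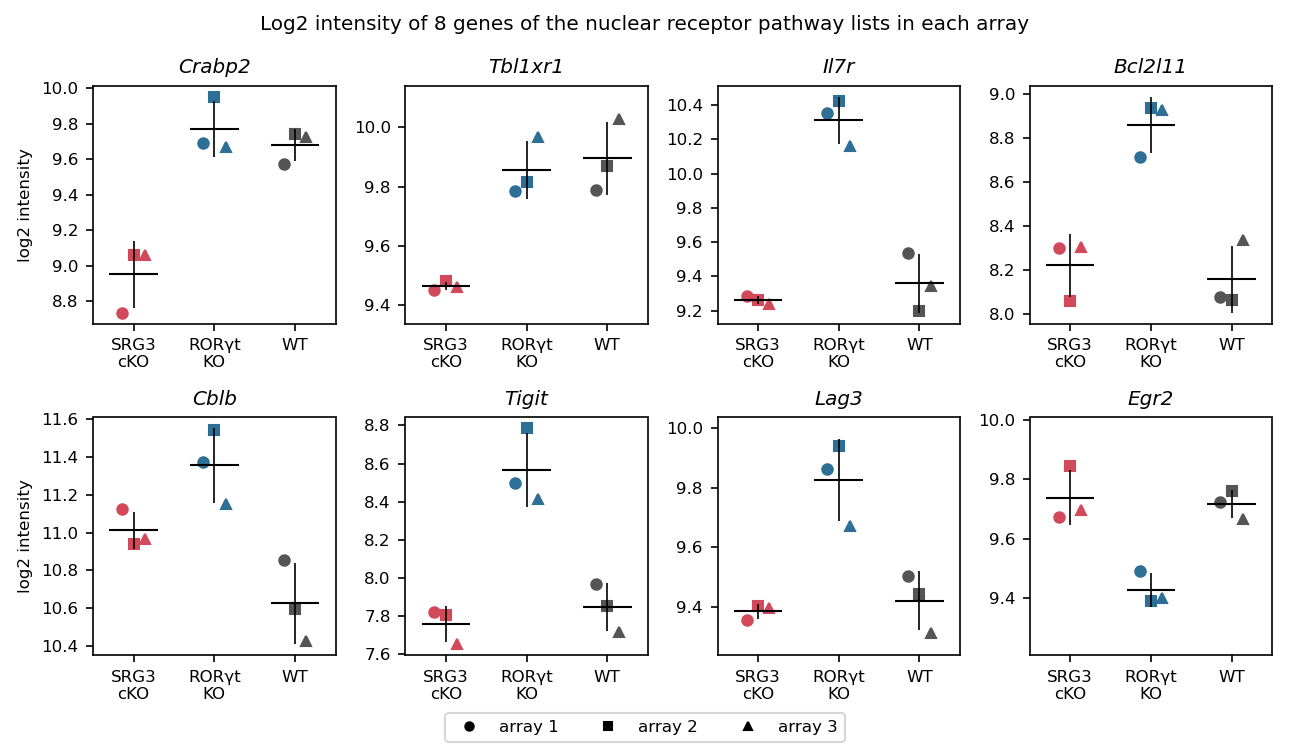
Log2 intensity (y axis, a scale of its own per panel) of 8 genes of the ligand handling, corepressor, glucocorticoid receptor target and NR4A-linked lists in each array of SRG3 cKO, RORγt KO and WT (x axis), drawn as in the plot of receptor genes by array. Crabp2 and Tbl1xr1 are lowest in all 3 SRG3 cKO arrays, while Il7r, Bcl2l11, Tigit, Lag3 and Cblb are highest and Egr2 lowest in the RORγt KO arrays.

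The other orphan and estrogen-related receptors did not pass in any comparison. Nr2c1 and Nr2c2, repressors also known as TR2 and TR4, lay above the olfactory level and differed from WT by 0.04 and 0.00 in SRG3 cKO and by 0.02 and 0.01 in RORγt KO. Nr2f6, which in mouse T cells is known to antagonize IL-17 transcription, read 8.08, 8.11 and 7.98 in the SRG3 cKO arrays, 8.20, 8.11 and 8.27 in the RORγt KO arrays and 8.03, 8.07 and 8.14 in the WT arrays. Its difference was -0.03 in SRG3 cKO (interval -0.15 to 0.10) and 0.11 in RORγt KO (interval -0.01 to 0.24, limma adjusted p = 0.428), with overlap between the groups. Esrra differed by -0.03 in SRG3 cKO (interval -0.14 to 0.07) and by 0.00 in RORγt KO. Esrrb, to 3 decimals, read 6.001, 6.019 and 6.001 in the SRG3 cKO arrays, 6.041, 6.001 and 6.021 in the RORγt KO arrays and 5.946, 5.903 and 5.959 in the WT arrays. The WT arrays were below those of both knockouts, by 0.07 and 0.09 (limma adjusted p = 0.492 in SRG3 cKO and 0.346 in RORγt KO), at the lowest level of the set against olfactory probe sets. Nr2e1, Nr2f1, Nr2f2, Esr1, Esr2, Esrrg, Nr5a1, Nr5a2 and Nr6a1 differed from WT by between -0.10 and 0.06 in SRG3 cKO and between -0.08 and 0.07 in RORγt KO.

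The proteins through which receptors act were measured as further lists. Of 13 measured corepressor genes, 1 fell in SRG3 cKO, namely Tbl1xr1, a subunit of the NCoR and SMRT corepressor complexes that helps release them when ligand binds. Tbl1xr1 read 9.45, 9.48 and 9.46 in the SRG3 cKO arrays, 9.79, 9.82 and 9.97 in the RORγt KO arrays and 9.79, 9.87 and 10.03 in the WT arrays. Its difference was -0.43 ± 0.07 against WT (SE, limma adjusted p = 0.0301) and -0.39 ± 0.07 against RORγt KO (adjusted p = 0.022), with the SRG3 cKO arrays below the 6 others. The call against WT held in 10 of 20 alternatives, and among fits that left out an array only without WT array 1 or RORγt KO array 3 (adjusted p up to 0.131 in the others). The call against RORγt KO held in 12 of 20 and ended without any 1 of the SRG3 cKO or RORγt KO arrays (adjusted p 0.0515 to 0.0881). Limma called 0 of the 13 corepressor genes in RORγt KO against WT (2 with an unadjusted p under 0.05), and the list medians were -0.04 in SRG3 cKO and -0.03 in RORγt KO. Of 24 coactivator genes limma called 0 in either comparison with WT, where 5 in SRG3 cKO and 1 in RORγt KO had an unadjusted p under 0.05 and the medians were 0.03 in SRG3 cKO and 0.00 in RORγt KO. The smallest p-values were those of Pnrc2 (0.14 in SRG3 cKO, adjusted p = 0.185) and Sra1 (0.18 in SRG3 cKO, adjusted p = 0.189). Of 10 measured chaperones of steroid receptors limma also called 0, with 3 in SRG3 cKO and 5 in RORγt KO at an unadjusted p under 0.05 and medians of -0.06 in SRG3 cKO and -0.08 in RORγt KO. Over all genes those unadjusted shares were 11.2% in SRG3 cKO and 12.7% in RORγt KO. In these comparisons limma called 0.523% and 1.04% of all genes. In the chaperone list Fkbp4 differed by -0.12 in SRG3 cKO and -0.15 in RORγt KO and Ppid by -0.03 and -0.15.

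Set directly against each other, SRG3 cKO and RORγt KO differed in 0 of the 38 receptor genes by limma, while 1.28% of all genes were called. Without adjustment 3 receptor genes (Vdr, Nr2f6 and Nr3c1) had a p under 0.05, or 7.89% against 11.1% of all genes. Vdr differed by -0.25 (interval -0.37 to -0.12, limma adjusted p = 0.0829), with all SRG3 cKO arrays below the RORγt KO arrays, and passed only where genes under the median intensity were left out (adjusted p = 0.0436). Nr2f6 differed by -0.14 (limma adjusted p = 0.376) and Nr3c1 by -0.10 (adjusted p = 0.447). Groups did not overlap for 2 receptor genes, Vdr and Ppara, both lower in SRG3 cKO, or 5.26% against 14.6% of all genes (6.82% lower). The interval lay within 0.5 log2 units of 0 for 37 of the 38 genes, the exception being Nr4a2 (-0.25, interval -0.61 to 0.11). Both comparisons with WT use the same WT arrays, so their values for a gene are not independent of each other.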

How the data were processed

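RNA of 9 Th17 cultures, 3 each of SRG3 cKO, RORγt KO and WT, was hybridized to GeneChip arrays. The values are log2 probe set intensities as deposited by the authors, and their background correction, probe summary and normalization are not given in the sources used here. All array columns were used (0 left out). A single gene symbol was given for 23521 of the 41345 probe sets, and only these were compared, while 1814 had several symbols and 16010 had none. Symbols were updated by gene ID through the RefSeq table of GRCm38.p6 (23328 matched), and the highest-mean probe set stood for each of the 1082 genes with several, giving 22180 genes. Arrays have no read depth, and 3 arrays a genotype limit the precision.

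Groups were compared with limma 3.58.1 (R 4.3.3) in 1 fit of all 9 arrays, with Benjamini-Hochberg adjustment over all 22180 genes and a threshold of 0.05. In a run on simulated data, 5.59% of calls were false for SRG3 cKO against WT and 8.14% for RORγt KO against WT. Those data were independent normal values without repeats or replicate-number correlation, so the run does not test the effect of either. The main fit held no term for the replicate number, so its p-values are those of an unpaired comparison. The deviations of same-numbered arrays from their group means correlated by 0.287, 0.186 and 0.116 for SRG3 cKO and WT, against -0.2335 to 0.07723 for differently numbered arrays. These 2 genotypes may therefore be paired, though deviations from a mean of 3 arrays are not independent. Same-numbered arrays correlated by 0.215, -0.00527 and 0.186 for RORγt KO and WT, against -0.2877 to 0.1314 for differently numbered ones. Between the knockouts the values were 0.223, -0.00544 and 0.137, against -0.246 to 0.1482. The replicate number entered as a block in alternatives only. With that block and only SRG3 cKO and WT in the fit, Vdr did not pass (limma adjusted p = 0.0901) and Nr4a3 did (0.0468). Alternatives covered normalization, centring, filters, probe choice, the variance model, array weights, the groups in the fit, the block and each array left out.

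Every measured receptor gene is named. Of each of the 10 pathway lists, the genes that passed against WT are named (at most 6), or the 2 with the smallest p where none passed. The members and lists were chosen with earlier results of these data known. The gene targeted in RORγt KO is not reported here. Promoter windows came from a RefSeq table, which held 36 of the 40 listed receptor genes, and were searched on both strands.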

Additional observations from a re-analysis of the deposited data

How the results depend on the processing

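Signs were followed only for the receptor genes and other genes named here, not for all called genes. Among these, no difference that passed the test changed sign under the 20 alternatives, but differences near 0 did: those of 18 of 37 receptor genes that had not passed in SRG3 cKO against WT (each 0.13 or smaller in size), of 21 of 38 in RORγt KO against WT (0.07 or smaller) and of 16 of 38 in SRG3 cKO against RORγt KO (0.05 or smaller). The receptor count in SRG3 cKO against WT (1, Vdr) was 0 with genes above the olfactory level only, where Vdr was not tested, 0 over all probe sets, 0 with only the compared groups in the fit, and 0 to 1 with an array left out. With the replicate block and only the compared groups, chosen after seeing the data, it was 1, but the gene was Nr4a3. In RORγt KO against WT it was 0 throughout. In SRG3 cKO against RORγt KO it was 1 (Vdr) with genes above the median intensity and 0 to 0 with an array left out. Counts over all genes moved more. In SRG3 cKO against WT (116) they were 211 above the olfactory level, 196 above the median, 48 over all probe sets, 13 with only the compared groups, 195 with the replicate block, 32 with both of these last settings, and 18 to 87 with an array left out. In RORγt KO against WT (230) they were 362, 348, 128, 43, 374 and 63 under the same settings in that order, and 45 to 322. In SRG3 cKO against RORγt KO (283) they were 142 with only the compared groups, 131 with the block added, and 138 to 261. With the block in all 9 arrays, Il23r in SRG3 cKO and Ly6g in RORγt KO no longer passed (adjusted p = 0.0552 and 0.0515), Itgb7 and Tgm2 passed in RORγt KO (0.0335 and 0.0269), and no receptor gene changed its call. The causes were not tested. With 3 arrays a genotype, differences of dim receptor genes stand near the level of olfactory probe sets, where intensity limits what can be seen.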

Other observations

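The deposited values hold exact repeats between arrays. In 23 of the 38 receptor genes (60.5%), and in 56.0% of all genes, at least 2 of the 9 arrays had the same value to the last deposited digit. Nr2c1 had 8.49 in 6 arrays spread over all 3 genotypes, Esrrg shared 1 value in 5 arrays, and Thra, Hnf4g and Nr6a1 in 4. Hnf4a had the same value, 7.27, in all 3 SRG3 cKO arrays, with an SD of 0 there. Vdr, Nr4a1 and Nr4a3 had 9 different values. What the repeats do to the standard errors of the genes that hold them was not tested.

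Some receptor probe sets did not enter the comparisons. A probe set annotated with Ppard and another symbol read 7.41, 6.98 and 7.22 in the SRG3 cKO arrays, 7.17, 7.14 and 7.21 in the RORγt KO arrays and 7.19, 6.92 and 7.03 in the WT arrays, overlapping throughout. Nr3c2 had another probe set of its own with a mean of 5.55, and a probe set shared with another symbol had a mean of 7.09.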
